A study of Homo sapiens with 3 samples.

Results

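SRA is a long non-coding RNA that also acts as a coactivator of nuclear receptors, and p68, encoded by DDX5, is an RNA helicase that binds it. Trithorax group complexes place H3K4me3 and Polycomb repressive complex PRC2 places H3K27me3 on histones, and promoters that carry both marks are called bivalent. In pluripotent cells such promoters often belong to developmental genes that are held at low expression. Both SRA and p68 were mapped here on the chromatin of NTERA2, an unmodified human embryonal carcinoma line, grown in DMEM with serum, with properties of pluripotent stem cells.

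The loci described are 10 genes for which the study designed PCR primers to test single regions after chromatin pull-down. It presented its PCR examples as bivalent genes associated with SRA or with p68, and some of the latter as bound by SRA too. They are RUNX3, OPRD1, SDC3, BAI2, KIF21B, BTG2 and TMCC2 on chromosome 1, HSD11B2 and MLYCD on chromosome 16, and SIM2 on chromosome 21. A locus is the gene in hg19 plus 50 kb on each side, and every listed site that overlapped it was taken. This gave 97 of the 7899 SRA sites and 60 of the 14131 p68 sites, over 1.37 Mb in all. Because the genes were picked as bivalent and bound examples, the presence of sites in them is a description and not an independent result. The same holds for sites of both kinds lying together.

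The SRA sites come from ChIRP-seq, in which biotinylated oligonucleotides complementary to SRA recover the RNA with the DNA around it, and the p68 sites from ChIP-seq with an antibody against p68. For each assay a list of sites common to 3 biological replicates was available, and it holds positions alone. The depth behind a site is therefore unknown, no spread between replicates can be given and no test over replicates was possible. Intervals given with shares and densities cover counting error only, and neighbouring sites are not independent. SRA sites were called at a more permissive threshold than p68 sites, so that the numbers of the lists cannot be compared as amounts of bound DNA. The input chromatin was not analysed here.

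Positions along a gene are given as distances from its start in the direction of transcription. Gene ends were known to the nearest kb, so that a distance from a start may be off by up to 0.5 kb, while distances between sites are exact.

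**Figure D1:**
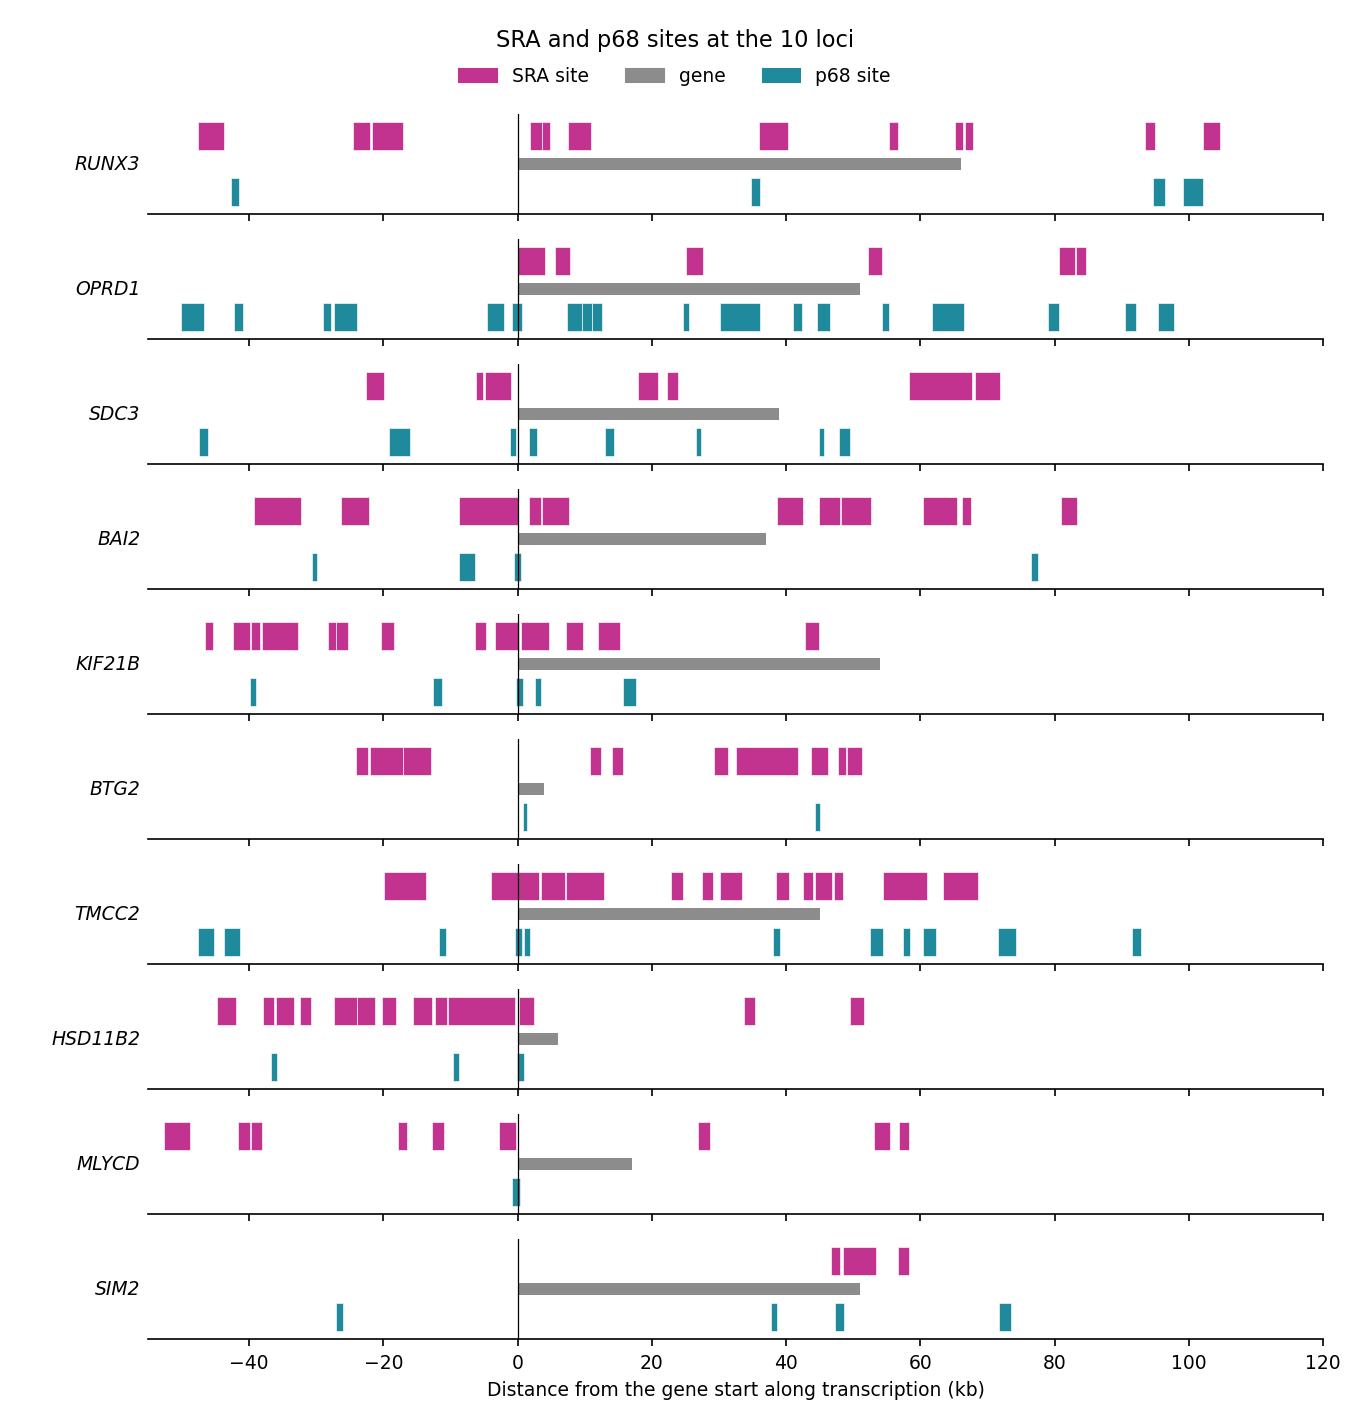
Sites of SRA (upper bars) and p68 (lower bars) at the 10 loci, drawn to scale against the distance in kb from the gene start along transcription (vertical line), with the gene as a grey bar. Each locus held between 3 and 13 SRA sites and between 1 and 18 p68 sites, and SIM2 had no site of either kind in the first 37.7 kb after its start.

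All 10 loci held sites of both kinds, but in different proportions. SRA sites numbered 13 at KIF21B, TMCC2 and HSD11B2, 12 at RUNX3, 11 at BAI2, 10 at BTG2, 9 at MLYCD, 7 at SDC3, 6 at OPRD1 and 3 at SIM2. The p68 sites numbered 18 at OPRD1, 11 at TMCC2, 8 at SDC3, 5 at KIF21B, 4 at RUNX3, BAI2 and SIM2, 3 at HSD11B2, 2 at BTG2 and 1 at MLYCD. SRA sites outnumbered p68 sites at 7 loci, and p68 sites outnumbered SRA sites at OPRD1, SDC3 and SIM2. The locus richest in p68 was thus among those poorest in SRA. The share of the locus covered by SRA sites ran from 5.16% at SIM2 to 35.5% at HSD11B2, and the share covered by p68 sites from 0.971% at MLYCD to 26.5% at OPRD1. OPRD1 was the only one of the 10 loci where p68 sites covered more DNA than SRA sites, with 9.80% under SRA.

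The loci were dense in sites of both lists. There were 70.8 SRA sites per Mb (95% exact Poisson interval 57.4 to 86.4) and 43.8 p68 sites per Mb (33.4 to 56.4). Over the whole of chromosome 1 the densities were 9.61 SRA and 10.9 p68 sites per Mb, and on chromosome 16 they were 11.6 and 8.95. The loci on chromosome 1 held 72.3 SRA and 52.2 p68 sites per Mb, whereas HSD11B2 and MLYCD on chromosome 16 held 98.7 SRA and 17.9 p68 sites per Mb. SIM2 held 19.9 SRA and 26.5 p68 sites per Mb, against 5.42 and 9.69 over chromosome 21. No test was made of these densities, since the genes had been picked as bound.

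SRA and p68 sites were close to each other at every locus. A p68 site lay within 500 bp of the edges of 25 of the 97 SRA sites (25.8%, 95% Wilson interval 18.1 to 35.3%), and over the whole SRA list the same was true of 11.6%. Seen from p68, 26 of the 60 p68 sites (43.3%, 31.6 to 55.9%) had an SRA site within that distance, against 6.55% of the whole p68 list. The distance of 500 bp is the one given in the methods of the study, and is measured here between the edges of sites. The loci had been picked as bound, in part by both SRA and p68, so the higher shares cannot be told apart from that choice. OPRD1 had the largest share of SRA sites with p68, 5 of 6, and BAI2 the smallest, 1 of 11. All 3 p68 sites of HSD11B2 and the only p68 site of MLYCD had SRA within 500 bp, and at SDC3 this was true of 1 of 8.

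**Figure D2:**
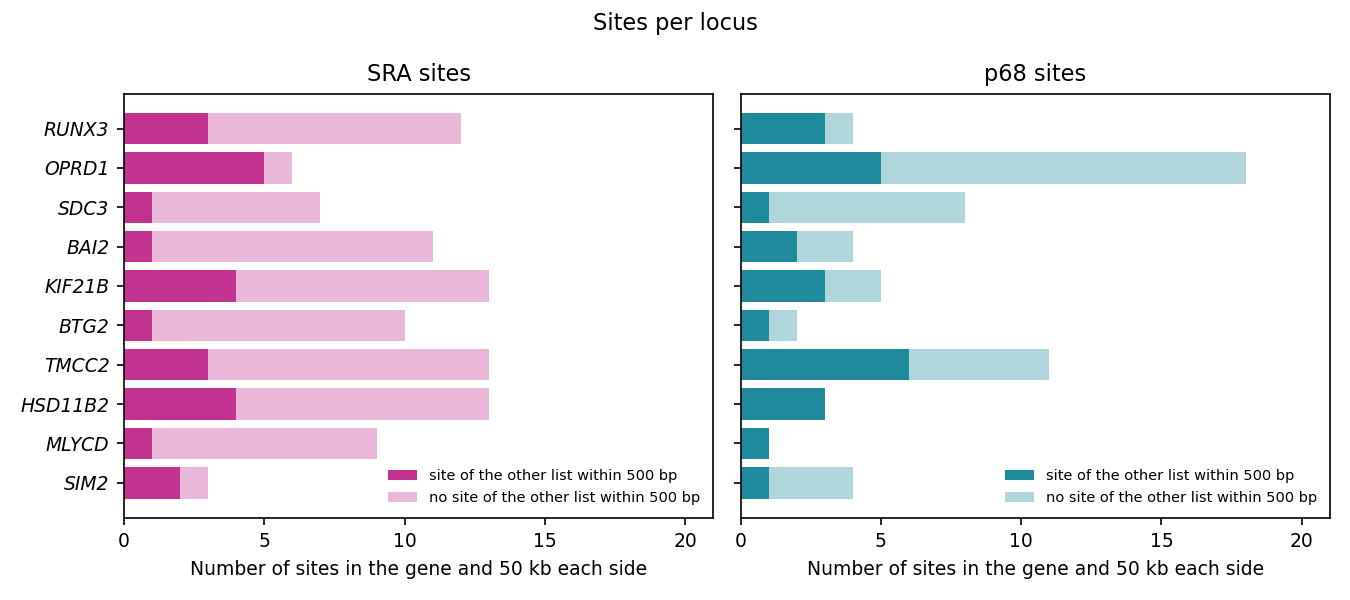
Number of SRA sites (left) and p68 sites (right) at each of the 10 loci, with the dark part of each bar counting sites that had a site of the other list within 500 bp. Every locus has a dark part in both panels, 1 to 5 SRA sites and 1 to 6 p68 sites long.

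The p68 sites were placed at the starts of most of these genes. A p68 site reached within 1 kb of the gene start at 8 of the 10 loci, all but RUNX3 and SIM2, and an SRA site did so at 7, all but RUNX3, BTG2 and SIM2. The p68 site of BTG2 began 0.7 kb after the start, and the SRA site of SDC3 ended 0.9 kb before it. With starts off by up to 0.5 kb, either may lie outside 1 kb. The 9 p68 sites at starts (TMCC2 had a pair of them) were 650 to 1564 bp wide, and the 9 SRA sites at starts (KIF21B and HSD11B2 each had a pair) were 2291 to 9971 bp wide. Every one of those 9 SRA sites had p68 within 500 bp, as did 16 of the other 88 SRA sites of the loci (18.2%, 11.5 to 27.5%). Of the p68 sites, 8 of the 9 at starts and 18 of the 51 elsewhere (35.3%, 23.6 to 49.0%) had SRA within 500 bp. Sites that both reach the same start are close to each other by construction, so that these shares describe the starts and do not test them. Shares of all genes with a site at their start were not computed, as this needs all hg19 gene starts, which were not used here.

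**Figure D3:**
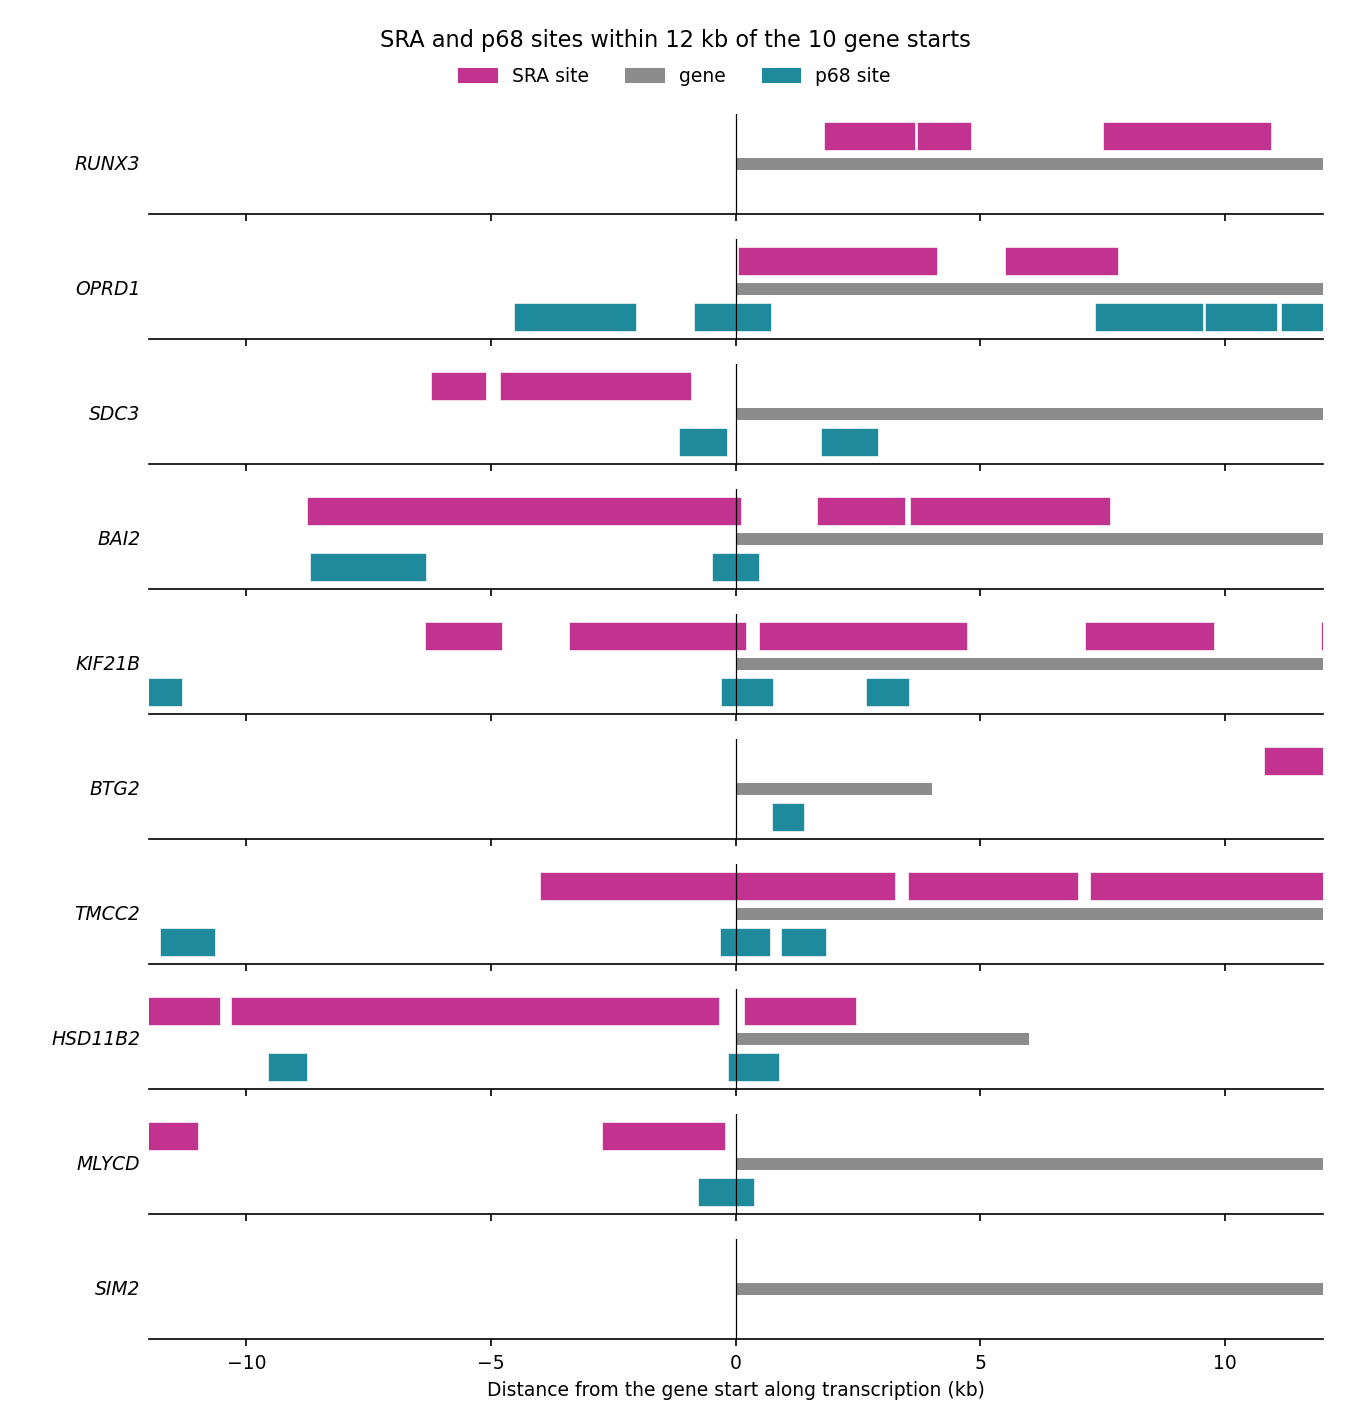
The same sites within 12 kb of the gene starts, with SRA as upper bars, p68 as lower bars, the gene as a grey bar and distance in kb along transcription on the horizontal axis. Narrow p68 bars sit on or beside the start at 8 loci, and wider SRA bars reach the start region at 7 of these.

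Among the genes for proteins of the cell surface, OPRD1 codes for the delta opioid receptor, a G protein-coupled receptor of neurons. Its locus ran on chromosome 1 from 29089001 to 29240000. The p68 site at the start, from 29138157 to 29139720, reached from 0.8 kb upstream to 0.7 kb downstream. An SRA site from 29139039 to 29143119 began at the start and overlapped that p68 site by 682 bp. SRA therefore lay on the downstream side of p68 here. A second SRA site, from 29144509 to 29146818, overlapped a p68 site from 29146352 to 29148546 by 467 bp, and the one from 29164151 to 29166576 overlapped the p68 site from 29163687 to 29164583 by 433 bp. Beyond the gene, the SRA sites from 29191165 to 29193288 and from 29219707 to 29222113 each lay 28 bp from a p68 site. None of the 6 SRA sites lay upstream of the gene start, and 6 of the 18 p68 sites were centred there. For the SRA and p68 sites at the start, this placing lies within the 0.5 kb error of the start. The widest p68 site of all 10 loci, 6053 bp, lay in this gene from 29169123 to 29175175, 2.55 kb from the nearest SRA site.

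BAI2, now named ADGRB2, codes for an adhesion G protein-coupled receptor of the brain, with a locus that ran on chromosome 1 from 32143001 to 32280000. A wide SRA site of 8869 bp, from 32229888 to 32238756, extended from 8.8 kb upstream to just past the start. It held a p68 site in full at its upstream end, from 32236339 to 32238704 (2366 bp), and overlapped by 608 bp the p68 site at the start, which ran from 32229535 to 32230495. These were the only p68 sites of the locus within 500 bp of SRA. The other 10 SRA sites were 1.19 kb or more from p68, and 6 of the 11 were centred beyond the end of the gene.

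SDC3 codes for syndecan-3, a heparan sulfate proteoglycan of neural cells, and the region examined ran on chromosome 1 from 31292001 to 31431000. The p68 site at the start, from 31381190 to 31382156, lay between 1.2 and 0.2 kb upstream and overlapped by 232 bp an SRA site from 31381925 to 31385826. SRA was on the upstream side of p68, the reverse of OPRD1. No other pair within 500 bp was found at this locus. The widest SRA site here, 9401 bp from 31313356 to 31322756, lay beyond the end of the gene and had its nearest p68 site 8.67 kb away.

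KIF21B, TMCC2, HSD11B2 and MLYCD code for intracellular proteins. KIF21B is a kinesin, a motor that moves cargo along microtubules in neurons, and its locus ran on chromosome 1 from 200889001 to 201043000. The p68 site at its start, from 200992235 to 200993298 (1064 bp), bridged a gap between 2 SRA sites. It overlapped the upstream SRA site, from 200992792 to 200996399, by 507 bp and the downstream one, from 200988274 to 200992519, by 285 bp. The downstream SRA site also held in full a second p68 site of 886 bp, from 200989463 to 200990348. About 39 kb upstream, a p68 site from 201031971 to 201032942 again touched 2 SRA sites, by 88 bp and 771 bp. SRA sites crowded the upstream flank, with 9 of 13 centred there, 4 in the gene and none beyond it.

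TMCC2 codes for a transmembrane protein with coiled coils, and the region examined ran on chromosome 1 from 205147001 to 205292000. An SRA site of 7253 bp, from 205193004 to 205200256, spanned the start from 4.0 kb upstream to 3.3 kb downstream, and it held 2 p68 sites in full. The first, from 205196681 to 205197704, lay on the start and the second, from 205197917 to 205198839, lay 0.9 to 1.8 kb downstream. TMCC2 was thus the only one of the 10 genes where the p68 site on the start lay in full inside an SRA site. Further pairs were found near the end of the gene, where the SRA site from 205235548 to 205237383 overlapped p68 by 580 bp, and beyond it. There, an SRA site of 6635 bp, from 205251428 to 205258062, held a p68 site of 1018 bp near its middle and met a p68 site at each of its ends, with overlaps of 32 bp and 696 bp.

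HSD11B2 is the enzyme that turns cortisol into cortisone and so keeps it from the mineralocorticoid receptor. Its locus ran on chromosome 16 from 67415001 to 67521000, and 10 of its 13 SRA sites were centred upstream of the start. The widest SRA site of all 10 loci, 9971 bp, ran from 67454688 to 67464658 and ended 0.3 kb upstream of the start. The p68 site at the start, from 67464843 to 67465875, lay 184 bp from it and overlapped by 709 bp the SRA site that followed, from 67465167 to 67467457. As at KIF21B, p68 at the start stood where an upstream and a downstream SRA site came close. A second p68 site, of 796 bp from 67455440 to 67456235, lay in full inside the wide SRA site. The third, from 67428206 to 67429121, touched 2 SRA sites some 36 kb upstream, by 439 bp and 99 bp.

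MLYCD codes for malonyl-CoA decarboxylase, which relieves the block on fatty acid oxidation. Its locus ran on chromosome 16 from 83883001 to 84000000. Its single p68 site, from 83932231 to 83933366, lay across the start, from 0.8 kb upstream to 0.4 kb downstream. It overlapped by 555 bp an SRA site from 83930267 to 83932785 on its upstream side. The other 8 SRA sites had p68 no nearer than 4.67 kb.

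The remaining 3 genes code for regulators of transcription and growth, and none of their starts carried an SRA site within 1 kb. BTG2 is an antiproliferative gene induced by p53, and its locus ran on chromosome 1 from 203225001 to 203329000. A p68 site of 650 bp, from 203275748 to 203276397, lay 0.7 to 1.4 kb after the start. It was the narrowest p68 site of the 10 loci and the only one at a start without SRA nearby, since the nearest SRA site was 9.40 kb away. The SRA sites stood on both sides, 3 in the upstream flank and 7 beyond the gene. One of these, from 203318712 to 203321316, held a p68 site of 870 bp in full, 44.3 kb after the start.

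RUNX3 is a Runt domain transcription factor of T cells and sensory neurons. Its locus ran on chromosome 1 from 25176001 to 25342000. The nearest SRA site, from 25288331 to 25290204, began 1.8 kb after the start, and the nearest p68 site, from 25255843 to 25257200, lay far inside the gene, 34.8 to 36.2 kb after the start. That p68 site overlapped by 213 bp an SRA site of 4399 bp that followed it, from 25251657 to 25256055. The other 2 pairs lay beyond the gene. One overlapped by 237 bp, and the other, between the SRA site from 25187402 to 25189921 and the p68 site from 25189919 to 25192861, by 3 bp. RUNX3 is known to be transcribed from a distal and a proximal promoter. RefSeq lists 2 starts for it in GRCh38.p14, the second 34.7 kb after the first. The p68 site inside the gene, which began 34.8 kb after the start, thus lay at nearly the same distance as the second start. The distance between the starts comes from another build than the sites and was not converted, so that whether p68 lies on the proximal promoter was not determined.

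SIM2 is a transcription factor of neural development on chromosome 21, and its locus ran from 38022001 to 38173000. It had the fewest SRA sites, all of them near the end of the gene or beyond it. A p68 site from 38119235 to 38120670, 47.2 to 48.7 kb after the start, again met 2 SRA sites, with its midpoint inside the first. It overlapped the first, from 38118670 to 38120011, by 777 bp and the second, from 38120503 to 38125402, by 168 bp. The nearest site to the start was a p68 site 26.0 kb upstream.

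Promoter sequence is shown for RUNX3, whose first listed start lacked p68, and for the promoters in which a primer was found. RefSeq promoters (GRCh38.p14, 250 bases before to 50 after each start) were present for 7 of the 10 genes and not for KIF21B, HSD11B2 and SIM2. The 250 bases before each RUNX3 start are printed 5′ to 3′ with CG dinucleotides in capitals, the distal one from chr1:24965011-24965260 and the proximal one from chr1:24930277-24930526, both on the minus strand.
RUNX3 distal: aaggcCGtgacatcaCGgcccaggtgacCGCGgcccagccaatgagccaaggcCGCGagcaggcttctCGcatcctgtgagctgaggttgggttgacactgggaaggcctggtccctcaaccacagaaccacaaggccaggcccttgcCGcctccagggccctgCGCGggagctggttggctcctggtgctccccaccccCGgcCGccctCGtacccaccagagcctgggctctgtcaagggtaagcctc
RUNX3 proximal: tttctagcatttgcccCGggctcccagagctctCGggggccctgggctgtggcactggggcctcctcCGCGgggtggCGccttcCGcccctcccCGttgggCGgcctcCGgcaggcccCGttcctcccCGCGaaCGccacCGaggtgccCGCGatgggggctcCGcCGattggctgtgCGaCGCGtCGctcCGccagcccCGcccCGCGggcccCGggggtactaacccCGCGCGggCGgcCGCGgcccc

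Over the 300 bases, the distal RUNX3 promoter had 66.3% GC and 15 CG dinucleotides, 0.46 of the number its base composition would give, while the proximal one had 76.0% GC and 38 CG, a ratio of 0.88. The first listed promoters of the 6 genes with p68 at their start had more CG than the distal RUNX3 promoter. Their ratios were 0.80 at OPRD1, 0.84 at BTG2, 0.88 at SDC3, 0.91 at MLYCD, 0.96 at TMCC2 and 0.99 at BAI2, and their GC content ran from 71.7% at TMCC2 to 84.0% at SDC3. The comparison uses first listed starts alone, and later starts of TMCC2 given below differ. It rests on a single promoter without p68, since none was listed for SIM2, the other gene lacking p68 at its start. The proximal RUNX3 promoter, which a p68 site matched closely in distance but was not placed on, had a ratio within the range of the 6 genes. The genes were picked as bivalent and bound, and a link between p68 and CG was not tested. TMCC2 has 6 listed starts, and its later ones had fewer CG, with ratios of 0.62 at 0.985 kb and 0.39 at 1.77 kb after the first and 0.20 to 0.28 at the other 3. The second p68 site of TMCC2 lay 0.9 to 1.8 kb after the start. By distance it takes in the starts at 0.985 and 1.77 kb, and the ratio of 0.39 is below the 0.46 of the distal RUNX3 promoter. Sites and listed starts come from different builds, so that whether p68 lies on those starts was not determined. Over all 35116 RefSeq promoters the medians were 58.7% GC and a ratio of 0.58. GGGCGG, searched on both strands, was found in the first listed promoter of all 7 genes and in 45.0% of all promoters. A match of these letters describes the sequence and does not show that a factor binds it.

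The study tested each locus with a primer pair, 20 primers of 20 to 21 nt in all. An exact match to the RefSeq promoters of these genes was found for 2 of them, which places one end of each tested stretch. The BTG2 forward primer begins 43 bases before the BTG2 start and reads towards the gene, and it also lies in the listed promoter of the divergent transcript BTG2-DT. The TMCC2 reverse primer covers the stretch from 136 to 117 bases before the first TMCC2 start. Both stretches are on the plus strand, BTG2 from chr1:203305269-203305518 and TMCC2 from chr1:205227696-205227945 in GRCh38.p14, and capitals mark the primer match.
BTG2 forward primer: tccctggacctcctgaaaaac
BTG2 reverse primer: aagaccttaagcctctgctcg
BTG2 promoter: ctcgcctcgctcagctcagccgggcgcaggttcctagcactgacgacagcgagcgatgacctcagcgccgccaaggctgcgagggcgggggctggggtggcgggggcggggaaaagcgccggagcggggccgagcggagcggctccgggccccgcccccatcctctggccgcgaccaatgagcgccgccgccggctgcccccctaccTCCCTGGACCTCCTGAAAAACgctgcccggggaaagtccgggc
TMCC2 forward primer: atgggtggaggaaatcctgg
TMCC2 reverse primer: gtttttggggttggttgcac
TMCC2 promoter: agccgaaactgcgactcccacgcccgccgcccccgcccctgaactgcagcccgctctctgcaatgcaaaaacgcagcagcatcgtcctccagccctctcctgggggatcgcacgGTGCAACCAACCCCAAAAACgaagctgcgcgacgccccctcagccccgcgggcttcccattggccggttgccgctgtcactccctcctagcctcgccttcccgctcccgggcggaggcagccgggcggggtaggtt

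Measured from the start, the TMCC2 reverse primer and the SRA site of 7253 bp both take in the stretch just upstream of the gene, as does the p68 site that began 0.3 kb before the start. The BTG2 forward primer ends 23 bases before the start, whereas the listed p68 site began 0.7 kb and the nearest SRA site 10.8 kb after it. These distances come from 2 builds, and whether the first RefSeq start is the start used for the hg19 gene was not determined. The other 18 primers were not placed, since a genome of hg19 was not used here, and the PCR values were not analysed here.

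The geometry of the close pairs was examined over all loci. The 25 SRA sites and 26 p68 sites formed 31 pairs within 500 bp, of which 28 overlapped and 3 were separated by 28 to 184 bp. The median overlap was 568 bp, with a range of 3 to 2366 bp. The midpoint of p68 lay inside the SRA site in 12 pairs and outside it in 19, 9 on the upstream side and 10 on the downstream side with respect to the gene. A p68 site close to 2 SRA sites entered 2 pairs. At the KIF21B start and farthest upstream at HSD11B2 it counted once on each side, and at SIM2 once inside and once upstream. The near-equal counts therefore describe pairs and not the placing of separate sites. The whole p68 site lay inside SRA in 7 pairs, at BAI2, KIF21B, BTG2, TMCC2 and HSD11B2. How much counted as shared followed the rule, as at least 50% of the site was covered for 14 of 60 p68 sites (23.3%) and for 2 of 97 SRA sites (2.06%). Over the whole lists these shares were 1.8% and 0.570%.

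**Figure D4:**
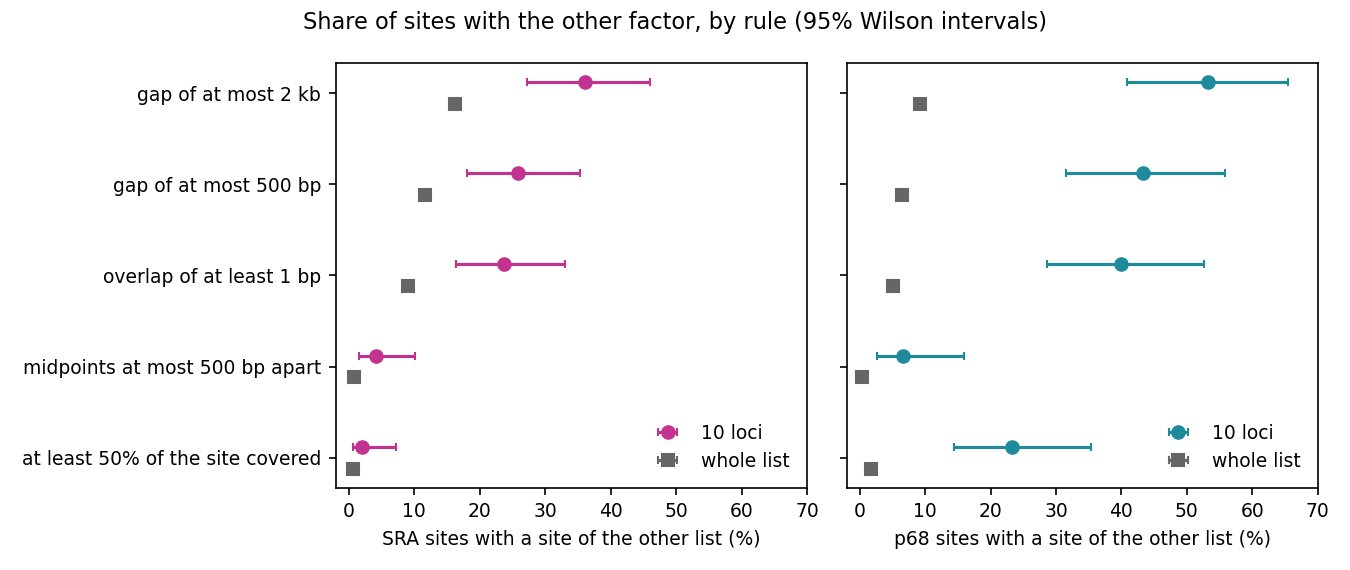
Percent of SRA sites (left) and p68 sites (right) with a site of the other list under 5 rules, for the 10 loci (circles) and the whole list (squares), with 95% Wilson intervals that for the squares are about as small as the symbols. The circles lie to the right of the squares under each rule, from 2.06% against 0.570% to 36.1% against 16.2% for SRA. The value of 2.06% rests on 2 of 97 sites, and its interval, 0.567 to 7.21%, includes the whole-list value.

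The sites at the loci had median widths near those of their lists, and upper quartiles above them. SRA sites had a median width of 2407 bp (quartiles 1698 and 3902 bp, 95% interval of the median 2051 to 2670 bp), against 2227 bp for the whole list, which lies inside that interval. The p68 sites had a median of 1351 bp (quartiles 1001 and 1886 bp, interval 1121 to 1616 bp), against 1185 bp, also inside it. The upper quartiles of the whole lists were 3273 bp for SRA and 1643 bp for p68. At the loci, 32 of 97 SRA sites and 19 of 60 p68 sites were wider than these. The median SRA width was highest at BAI2 (4078 bp) and lowest at SIM2 (1553 bp), and the median p68 width was highest at OPRD1 (1634 bp) and lowest at BTG2 (760 bp). A width of over 9 kb was reached by single SRA sites at SDC3, BTG2 and HSD11B2. Without OPRD1, which holds 18 of the 60 p68 sites, the median p68 width was 1136 bp, below that of the list.

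**Figure D5:**
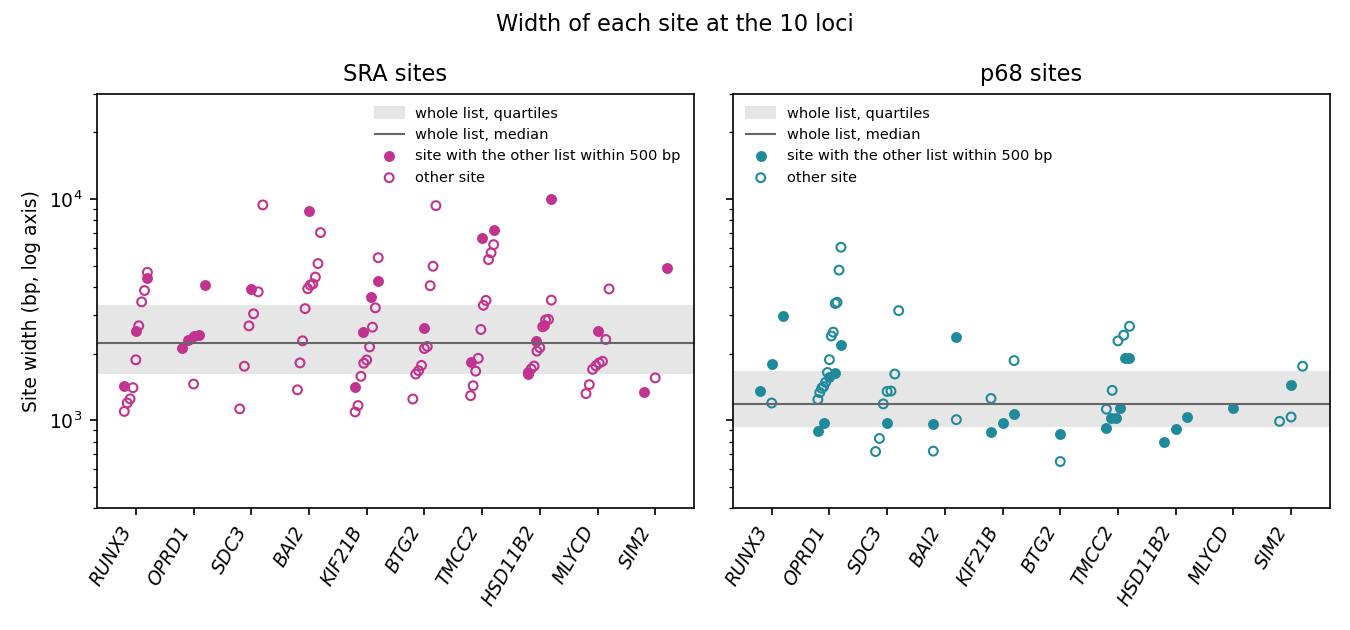
Width in bp (log axis) of each SRA site (left) and p68 site (right) at the 10 loci, with filled circles for sites that have a site of the other list within 500 bp, and the median and quartiles of the whole list as a line and a grey band. The p68 sites wider than 3 kb all belong to OPRD1 and SDC3, and both filled and open circles occur above and below the line.

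Sites of both lists were found in both flanks and in the genes. SRA sites centred upstream of the start numbered 39 (7.80 per 100 kb, 95% exact Poisson interval 5.55 to 10.7), in the gene 27 (7.30, 4.81 to 10.6) and beyond the gene 31 (6.20, 4.21 to 8.80). The p68 sites numbered 22 (4.40, 2.76 to 6.66), 21 (5.68, 3.51 to 8.68) and 17 (3.40, 1.98 to 5.44) in the same order. Differences between flanks and genes were not tested. Over the 10 genes, SRA sites covered 47.4% of the 5 kb before the start and 43.8% of the 5 kb after it, against 22.5% and 29.7% of the next 5 kb on either side. For p68 these values were 12.7% and 15.1% next to the start, and 6.32% and 5.21% further out. The SRA percentages rest in part on single wide sites, such as those of 8869 bp at BAI2, 7253 bp at TMCC2 and 9971 bp at HSD11B2. Counted by loci, SRA reached into the 5 kb before and after the start at 6 loci each, and into the next 5 kb at 4 loci upstream and 5 downstream. For p68 these counts were 7 and 8 loci next to the start, and 2 and 1 further out.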

How the data were processed

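Per the labels and methods, the authors sequenced SRA ChIRP and p68 ChIP DNA from NTERA2 with single-end reads of 50 bp and aligned them to hg19 (the aligner is not given in the sources used here, and their processing notes name CASAVA 1.8.2). Reads with a mapping quality of at least 20 were kept and duplicates discarded. Peak calling used MACS 1.4.2, with p-value thresholds of 1e-04 (SRA) and 1e-05 (p68). They intersected the lists of 3 replicates and subtracted LacZ peaks from SRA. A site missing in a single replicate is therefore absent. The deposited files hold other values than counts, namely the chromosome, start and end of each site.

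From these, sites overlapping each gene plus 50 kb per side were taken, with the first base counted as 1. Gene ends were known to the nearest kb. Strands were checked against RefSeq for 7 genes and taken from general knowledge for KIF21B, HSD11B2 and SIM2. The members and rules were chosen with earlier results of these data known. All 10 genes are named, and of their sites those nearest to the start, those in pairs within 500 bp and the widest. No test was run. Functions were checked on planted sites. Python 3.11.15, numpy 2.4.6, scipy 1.17.1, pandas 2.3.3 and matplotlib 3.10.9 were used.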

Additional observations from a re-analysis of the deposited data

How the results depend on the processing

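No replicate could be left out and no paired analysis was possible because each assay gave a single list common to its replicates. Of 109 values recomputed, 88 stayed within their counting interval or, for counts, within 1.5 times the reported one. Most of the 109 came from leaving out a single locus, which changes the set little, and all of these stayed. The 21 values that moved came from the other alternatives, namely the rule, the flank, the loci outside chromosome 1 and the joined sites. The pooled count therefore does not measure how stable the results were to those choices. With midpoints at most 500 bp apart as the rule for a shared site, the shares fell to 4.12% of SRA and 6.67% of p68 sites, at 3 loci, and with at least 50% of the site covered they were 2.06% of SRA sites, which lay at 2 loci, and 23.3% of p68 sites. A gap of at most 2 kb gave 36.1% of SRA sites. Taking the gene alone left 31 SRA sites (38.7% shared) and 24 p68 sites, and 10 kb on each side left 45 (37.8%) and 32 (56.2%), while 100 kb gave 93 p68 sites. The 3 loci outside chromosome 1 held 25 SRA and 8 p68 sites, with 62.5% of the p68 sites shared and a median p68 width of 1033 bp. Sites within 10 kb counted once came to 33 for SRA and 35 for p68. Leaving out each locus in turn gave 22.0 (without OPRD1) to 27.9% (without BAI2) of SRA sites and 40.4 (without HSD11B2) to 50% (without OPRD1) of p68 sites shared. In an alternative chosen after seeing the data, moving the gene starts by 0.5 kb upstream left SRA at 7 and p68 at 7 starts, and downstream 6 and 8. The start lost for p68 was that of BTG2, and the start lost for SRA that of SDC3. Causes were not tested.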

Other observations

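SRA sites at the 10 loci often followed each other with short gaps. Of 87 gaps between neighbouring SRA sites of a locus, 25 (28.7%) were 500 bp or less, and the median gap was 2416 bp. Over the whole SRA list, 8.65% of 7876 gaps were this short. For p68, 4 of 50 gaps at the loci and 3.61% of 14101 gaps of the list were 500 bp or less. At the loci, only gaps between sites of the same locus were taken, which leaves out gaps to sites beyond it. The gaps of the list include all neighbours on a chromosome. Gaps are also shorter wherever sites are dense, so that these shares go with that choice and with the density of the loci. No test was made. The shortest SRA gap, 5 bp, lay at HSD11B2 between the sites from 67437580 to 67441068 and from 67441074 to 67443716 on chromosome 16. Gaps of 500 bp or less were found at all 10 loci, 4 each at KIF21B, TMCC2 and HSD11B2, 3 each at RUNX3 and BTG2, 2 each at SDC3 and BAI2, and 1 each at OPRD1, MLYCD and SIM2.

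The flanks of the loci can reach other genes. In the RefSeq gene table the nearest protein-coding neighbours were YTHDF2 and EPB41 for OPRD1, CLIC4 and SYF2 for RUNX3, and ZDHHC1 and ATP6V0D1 for HSD11B2. Their positions in hg19 were not used here, so that sites in the flanks were not assigned to them.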
